A study of Homo sapiens with 8 samples.

Results

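EIF6 encodes eIF6, the protein that has to leave a new 60S ribosomal subunit before it can be used, and SBDS and EFTUD1 encode the factors that release it. The sgRNAs of the 3 genes were followed in a CRISPRi growth screen. The 3 genes were found by matching the gene symbol in each sgRNA name, over the sgRNA sets for the primary promoter (named P1 or P1P2), and are 3 of 17547 genes tested. The library lists 30 sgRNAs for them, 10 a gene. Of these, 15 had reads, 5 a gene, and the other 15 had a count of 0 in all 8 libraries. Of all 209070 sgRNAs listed, 103686 also had a count of 0 in all libraries. EFTUD1 is the older symbol of EFL1, and the symbols below are those of the sgRNA names.

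The screen used K562, an established human leukemia line labelled as lymphoblast cells, carrying dCas9-KRAB, a catalytically inactive Cas9 fused to a repressor domain that an sgRNA guides to a promoter to lower its transcription. The cells stably expressed wild-type or mutant uL16, the 60S protein encoded by RPL10, with no other treatment, and all libraries came from cells that puromycin had selected for the sgRNA vector. Genomic DNA was taken at day 0 and day 9, which made 4 groups of 2 libraries: wild-type day 0, wild-type day 9, mutant day 0 and mutant day 9. What the mutation is, whether the cells still made their own uL16, and whether a line is 1 clone are not stated in the labels. Nor do the labels say that replicates were separate cultures, so p-values measure only the spread between these libraries, which may be technical.

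As background, eIF6 (EIF6) takes part in 60S assembly in the nucleolus and stays on the exported subunit, where it covers the surface that would meet the small subunit. In the cytoplasm SBDS binds near the peptidyl transferase centre, and the GTPase EFTUD1, a relative of the elongation factor eEF2, joins it to displace eIF6. uL16 is added to the same region of the subunit late in maturation. Inherited variants of SBDS or EFTUD1 cause Shwachman-Diamond syndrome, a bone marrow failure disorder. The counts measure how cells carrying each sgRNA grew, not the release of eIF6 itself or how far each gene was repressed.

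Total counts per library ranged from 39233340 to 143585751. The 15 sgRNAs had 74 to 1595 counts in the wild-type day 0 libraries and 2 to 1076 in the mutant day 9 libraries. The reads came from PCR with no molecular identifiers, so intervals from counts cover counting error only. The counts of the libraries of 1 group differed by more than sampling noise (chi-square per degree of freedom from 12.8 to 19.1 over sgRNAs). The non-targeting control sgRNAs, 1894 in number, had a median near 0, although 17 were called in wild-type (11 of them lower) and 13 in mutant cells (10 lower) by edgeR at an adjusted p under 0.05. Their median log2 change was 0.05 with wild-type uL16, with the middle 95% of sgRNAs from -0.71 to 0.63, and 0.04 with mutant uL16, with the middle 95% from -0.68 to 0.61. As a check of the cell label, 5 of the 6 tested K562 dependencies fell in each line. Over all genes 9.28% were called lower in wild-type and 9.07% in mutant cells. The list held 8 genes, of which TAL1 and ABL1 were not among the genes tested. One that fell was the erythroid factor GATA1, at -3.09 (SE 0.20) in wild-type cells. By edgeR 0 of 3 lymphoid factors fell in either line, with PAX5 at 0.20 (SE 0.11; edgeR, adjusted p = 0.308) in wild-type cells.

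The sgRNA sequences are not part of the count table, so the bases just before each gene's annotated start are shown instead, since the 3 genes differed in response and EFTUD1 has a close neighbour there. The sgRNAs were not placed on these stretches, and those of a gene span more bases than are shown. The bases lie directly before the annotated start of each gene, on the strand of the gene, from RefSeq in GRCh38.p14, for 3 of 3 genes. They are chr20:35284773-35285022 (minus strand) for EIF6, chr7:66995587-66995836 (minus strand) for SBDS, and chr15:82262735-82262817 (minus strand) for EFTUD1. The EFTUD1 stretch has only 83 bases because SAXO2, called FAM154B in the sgRNA names, starts there on the other strand. Capitals mark matches, on either strand, to 6 motifs searched, which were the E-box CACGTG, the GC box with letters GGGCGG, the CCAAT box, the TATA box with letters TATAAA, the ETS core GGAAG and the YY1 core AAGATGGCG.
EIF6: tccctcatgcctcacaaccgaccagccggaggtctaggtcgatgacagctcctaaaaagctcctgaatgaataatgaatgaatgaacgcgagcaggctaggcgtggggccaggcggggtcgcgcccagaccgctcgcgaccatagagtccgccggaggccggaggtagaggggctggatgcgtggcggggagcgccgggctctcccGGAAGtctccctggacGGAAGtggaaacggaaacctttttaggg
SBDS: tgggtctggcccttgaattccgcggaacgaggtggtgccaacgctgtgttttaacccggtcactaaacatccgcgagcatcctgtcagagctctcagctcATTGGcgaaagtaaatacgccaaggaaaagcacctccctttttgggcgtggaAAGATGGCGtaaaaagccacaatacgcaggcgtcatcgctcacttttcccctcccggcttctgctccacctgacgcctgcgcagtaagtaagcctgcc
EFTUD1: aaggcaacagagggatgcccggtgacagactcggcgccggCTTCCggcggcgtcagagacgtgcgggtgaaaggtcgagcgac

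EIF6 held 2 matches to GGAAG, which 65.1% of 35116 RefSeq promoter windows of 250 bases hold. SBDS held 1 match to CCAAT (32.0% of windows) and 1 to AAGATGGCG (0.652% of windows). EFTUD1 held 1 match to GGAAG, found in 32.0% of windows cut to the same 83 bases. No match to the E-box, the GC box or the TATA box was found in these stretches, and 6.34%, 42.6% and 10.7% of all windows of 250 bases hold them. Of windows cut to the 83 bases of EFTUD1, 2.97%, 28.4% and 4.46% do. The matches overlapped nowhere. GC content was 62.4% for EIF6, 55.2% for SBDS and 67.5% for EFTUD1.

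EIF6 and EFTUD1 sgRNAs were lost over the growth period in both lines, and SBDS sgRNAs were not lost beyond the spread between libraries in either. The log2 change was -1.13 (SE 0.13) for EIF6 and -0.94 (SE 0.09) for EFTUD1 in wild-type cells, and -1.38 (SE 0.13) and -1.16 (SE 0.09) in mutant cells. SBDS stood at -0.01 (SE 0.11) in wild-type and -0.12 (SE 0.11) in mutant cells. So 2 of the 3 genes were called lower in each line, where 9.28% of all genes were called lower in wild-type and 9.07% in mutant cells (edgeR's quasi-likelihood test on counts summed per gene, Benjamini-Hochberg adjusted p under 0.05).

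For EIF6, the summed counts of its 5 sgRNAs were 50.2 and 48.0 CPM (counts scaled to a common library size) in the wild-type day 0 libraries, 22.8 and 21.9 at wild-type day 9, 54.6 and 47.7 at mutant day 0, and 18.3 and 20.9 at mutant day 9. Every day 9 library lay below every day 0 library. The group means were 49.1 ± 1.54 (SD, n = 2) and 22.4 ± 0.675 in wild-type cells and 51.2 ± 4.89 and 19.6 ± 1.90 in mutant cells. This made EIF6 2.19-fold lower in wild-type cells (95% interval of the log2 change -1.40 to -0.87; edgeR, adjusted p = 2.55e-08) and 2.60-fold lower in mutant cells (-1.65 to -1.11; adjusted p = 3.32e-10). Of the 17547 genes, 490 had a lower change than EIF6 in wild-type and 355 in mutant cells.

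For SBDS, the libraries gave 51.0 and 49.2 CPM at wild-type day 0, 47.5 and 52.1 at wild-type day 9, 55.3 and 50.5 at mutant day 0, and 53.7 and 44.1 at mutant day 9. The day 0 and day 9 libraries overlapped in both lines. The group means were 50.1 ± 1.26 (SD, n = 2) and 49.8 ± 3.26 in wild-type cells and 52.9 ± 3.39 and 48.9 ± 6.77 in mutant cells. The 95% interval of the log2 change ran from -0.24 to 0.22 in wild-type cells (edgeR, adjusted p = 0.984) and from -0.35 to 0.11 in mutant cells (adjusted p = 0.683). These intervals lay above those of EIF6 and EFTUD1 in the same line, although the changes of different genes were not tested against each other.

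For EFTUD1, the libraries gave 94.9 and 96.5 CPM at wild-type day 0, 50.9 and 49.1 at wild-type day 9, 93.5 and 97.1 at mutant day 0, and 44.8 and 40.7 at mutant day 9. The day 9 libraries lay below all day 0 libraries. The group means were 95.7 ± 1.12 (SD, n = 2) and 50.0 ± 1.28 in wild-type cells and 95.3 ± 2.54 and 42.7 ± 2.92 in mutant cells. EFTUD1 was 1.91-fold lower in wild-type cells (95% interval of the log2 change -1.12 to -0.75; edgeR, adjusted p = 5.89e-10) and 2.24-fold lower in mutant cells (-1.35 to -0.97; adjusted p = 3.78e-12). Of the 17547 genes, 644 had a lower change in wild-type and 474 in mutant cells.

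**Figure D1:**
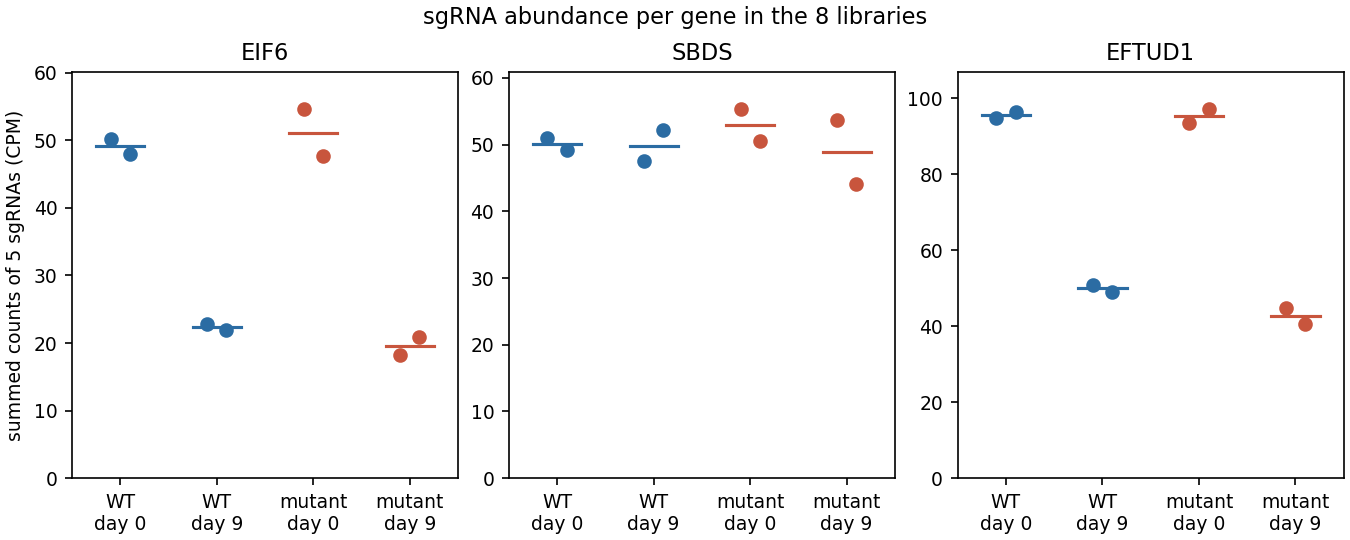
Summed counts of the 5 sgRNAs of EIF6, SBDS and EFTUD1 in CPM on the y axis for the 4 groups on the x axis, with 1 point per library and a line at the mean of the 2. The day 9 points of EIF6 (18.3 to 22.8) and EFTUD1 (40.7 to 50.9) sit below their day 0 points, and those of SBDS (44.1 to 53.7) lie among them.

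The sums hide large differences between the sgRNAs of a gene. The sgRNAs were numbered 1 to 5 along each gene from the most upstream, with positions taken as distances between the sgRNA names. CPM of single sgRNAs were scaled to all 104881 sgRNAs kept, so the 5 values add up to less than the gene's CPM. Tested singly, 6 of the 15 sgRNAs were called lower in wild-type and 7 in mutant cells, and none was called higher, where 5.12% and 5% of all sgRNAs were called lower (edgeR, adjusted p under 0.05). Pearson's r between the changes of the 2 lines was 0.872 over the 15 sgRNAs, which share 3 target genes and, within a line, the same libraries.

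EIF6 had the widest spread, with sgRNA changes from -3.65 to -0.49 in wild-type and from -4.71 to 0.11 in mutant cells. sgRNAs 1, 2 and 3 lie within 134 bases of each other and had the lowest changes, and sgRNAs 4 and 5 lie 334 and 415 bases downstream of sgRNA 1 and were not called in either line. EIF6 sgRNA 3, at 134 bases, went from 7.40 and 8.07 CPM at day 0 to 0.569 and 0.663 at day 9 in wild-type cells, and from 7.11 and 8.46 to 0.407 and 0.797 in mutant cells. It was 12.5-fold lower in wild-type (log2 change -3.65, SE 0.40; edgeR, adjusted p = 3.18e-07) and 12.3-fold lower in mutant cells (-3.62, SE 0.39; adjusted p = 2.03e-07), and 0 of the 1894 control sgRNAs were lower in either line. EIF6 sgRNA 2, at 28 bases, went from 15.4 and 13.7 CPM to 5.64 and 5.78 in wild-type cells, and from 20.4 and 15.1 to 4.65 and 1.87 in mutant cells. It was 2.55-fold lower in wild-type (adjusted p = 0.00174) and 5.65-fold lower in mutant cells (adjusted p = 7.47e-07), where the 2 day 9 libraries stood far apart.

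EIF6 sgRNA 1 was rare from the start. It had 85 and 74 counts at wild-type day 0 and 4 and 23 at wild-type day 9, and 73 and 165 counts at mutant day 0 and 3 and 2 at mutant day 9. Over the 2 libraries of each group this is a 4.13-fold loss in wild-type cells (exact 95% interval 2.73 to 6.46) and 30.9-fold in mutant cells (13.1 to 96.1), intervals that cover counting error only. The call was made in mutant cells (log2 change -4.71, SE 1.17; edgeR, adjusted p = 0.0108) and not in wild-type cells (-2.05, SE 0.95; adjusted p = 0.329). EIF6 sgRNA 4 went from 11.5 and 10.7 CPM to 8.51 and 7.35 in wild-type cells and from 12.6 and 9.71 to 7.68 and 8.33 in mutant cells, with changes of -0.49 (SE 0.23) and -0.47 (SE 0.22). EIF6 sgRNA 5 went from 5.41 and 5.48 CPM to 3.92 and 3.70 in wild-type cells. In mutant cells it had 3.41 and 4.40 CPM at day 0 and 2.16 and 6.16 at day 9, on both sides of the day 0 values.

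The EIF6 value depends on how sgRNAs are combined, because those that stayed weigh more in a sum and a rare one weighs fully in an average. At wild-type day 0, sgRNAs 4 and 5 held 27.7% and 13.6% of the CPM of EIF6, and at wild-type day 9 they held 43.2% and 20.8%. At mutant day 9 they held 49.8% and 25.9%. Averaging the log2 CPM of the 5 sgRNAs instead of summing counts gave EIF6 a change of -1.65 in wild-type and -2.15 in mutant cells (limma, adjusted p = 3.26e-06 and 8.25e-08). In this average the rare sgRNA 1 weighs as much as each other sgRNA, although it held 2.86% of the EIF6 CPM at wild-type day 0 and 2.54% at mutant day 0. It had 3 and 2 counts at mutant day 9, and an average without it was not run. Without its most abundant sgRNA, which is sgRNA 2, the change in mutant cells was -0.88 (edgeR, adjusted p = 0.000165).

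SBDS sgRNAs stayed near 0, from -0.22 to 0.22 in wild-type and from -0.46 to 0.13 in mutant cells, over 627 bases. SBDS sgRNA 1 had 8.69 and 7.44 CPM at day 0 and 6.89 and 6.95 at day 9 in wild-type cells, and 9.67 and 7.36, then 9.10 and 7.11, in mutant cells. SBDS sgRNA 2, at 224 bases, had 9.15 and 12.0 CPM, then 12.5 and 10.3, in wild-type cells, and 12.4 and 11.1, then 7.04 and 9.91, in mutant cells. This was the lowest SBDS change, at -0.46 (SE 0.23; edgeR, adjusted p = 0.433) in mutant cells, and 98 of 1894 control sgRNAs were lower still. SBDS sgRNA 3, at 391 bases, had 5.70 and 5.77 CPM, then 5.20 and 8.11, in wild-type cells, and 7.78 and 5.69, then 10.0 and 4.82, in mutant cells. SBDS sgRNA 4, at 587 bases, had 12.5 and 10.0 CPM, then 9.98 and 12.4, in wild-type cells, and 9.60 and 10.5, then 10.0 and 10.5, in mutant cells. SBDS sgRNA 5, at 627 bases, had 5.53 and 4.91 CPM, then 4.36 and 5.02, in wild-type cells, and 5.64 and 6.47, then 7.83 and 3.89, in mutant cells. The 2 mutant day 9 libraries were on either side of day 0 for sgRNAs 3 and 5. No SBDS sgRNA was called in either line by edgeR or DESeq2, and at an unadjusted p under 0.05 edgeR gave 0 of 5 in wild-type and 1 of 5 in mutant cells, beside 14100 and 11966 of all 104881 sgRNAs. How far these sgRNAs lowered SBDS transcription was not measured, so the small change gives no measure of how much K562 cells need SBDS.

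EFTUD1 had all 5 sgRNAs below 0 in both lines, 4 of them called lower in each. EFTUD1 sgRNA 2, at 84 bases, went from 7.80 and 7.41 CPM to 1.83 and 1.99 in wild-type cells and from 9.26 and 9.65 to 1.98 and 1.33 in mutant cells. Its log2 changes were -1.99 (SE 0.32; edgeR, adjusted p = 6.76e-05) and -2.53 (SE 0.32; adjusted p = 2.36e-06). EFTUD1 sgRNA 3, 18 bases further on, went from 15.6 and 16.8 CPM to 5.56 and 7.65 in wild-type cells and from 18.8 and 18.6 to 4.32 and 4.07 in mutant cells. Here the changes were -1.30 (SE 0.21; adjusted p = 8.67e-05) and -2.16 (SE 0.22; adjusted p = 6.45e-08). In these neighbouring sgRNAs each day 9 library was below each day 0 library.

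The remaining EFTUD1 sgRNAs had smaller losses. EFTUD1 sgRNA 1 went from 21.7 and 19.6 CPM to 9.96 and 10.6 in wild-type cells and from 18.3 and 20.7 to 10.1 and 8.58 in mutant cells, with changes of -1.01 (SE 0.18; edgeR, adjusted p = 0.000247) and -1.07 (SE 0.18; adjusted p = 0.000108). EFTUD1 sgRNA 4, at 261 bases, went from 15.3 and 14.8 CPM to 7.06 and 7.51 in wild-type cells and from 15.9 and 13.7 to 7.75 and 9.68 in mutant cells. Its changes were -1.05 (SE 0.21; adjusted p = 0.000967) and -0.75 (SE 0.20; adjusted p = 0.0212). EFTUD1 sgRNA 5, at 471 bases the farthest downstream, had 17.0 and 19.9 CPM, then 17.3 and 12.6, in wild-type cells, where the days overlap. In mutant cells it had 14.0 and 16.5 CPM, then 12.6 and 9.67, and its changes of -0.30 (SE 0.19) and -0.46 (SE 0.19) were not called.

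**Figure D2:**
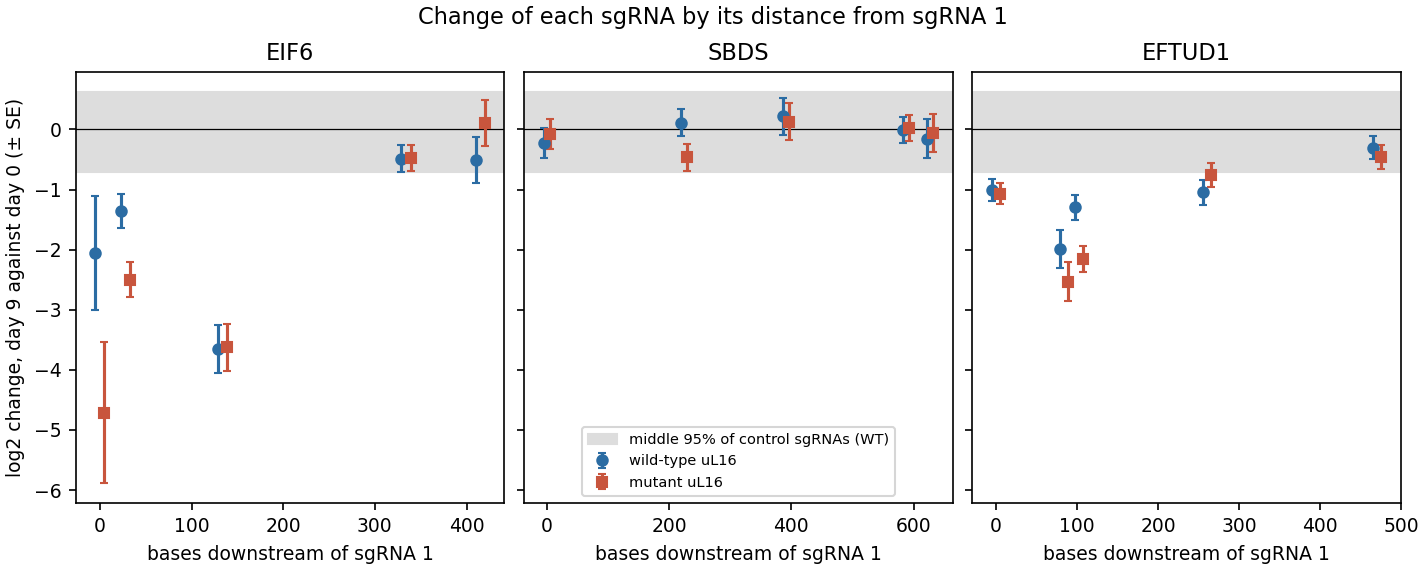
Log2 change from day 0 to day 9 of each sgRNA (y axis, ± SE) against its distance in bases from the most upstream sgRNA of the gene (x axis), for wild-type (circles) and mutant (squares) cells. The grey band is the middle 95% of control sgRNAs in wild-type cells (-0.71 to 0.63). sgRNAs 1 to 3 of EIF6 and 1 to 4 of EFTUD1 lie below it, and all SBDS sgRNAs lie within it.

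The EFTUD1 promoter is shared head to head with FAM154B, a gene with a product linked to microtubules, and its sgRNAs come close to those of EFTUD1. The 5 FAM154B sgRNAs lie 99 to 376 bases upstream of EFTUD1 sgRNA 1, and no position is shared. FAM154B had a change of -0.05 (SE 0.10; edgeR, adjusted p = 0.847) in wild-type and -0.12 (SE 0.09; adjusted p = 0.568) in mutant cells. Its sgRNA nearest to EFTUD1 had -0.39 in both lines, and was not called (adjusted p = 0.511 and 0.603). EIF6 and SBDS had no other gene's sgRNAs within 1000 bases. SBDSP1, the pseudogene of SBDS, has no sgRNAs of its own in the table, and whether SBDS sgRNAs also match it was not tested.

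The design also compares the loss of each gene between cells with mutant and wild-type uL16. The log2 change in mutant cells minus that in wild-type cells was -0.24 (SE 0.18) for EIF6, -0.23 (SE 0.13) for EFTUD1 and -0.11 (SE 0.16) for SBDS, and none of these differences passed. With edgeR, p was 0.196, 0.089 and 0.493 before adjustment and 0.924, 0.886 and 0.977 after. With DESeq2, p was 0.135, 0.035 and 0.458 before adjustment and 0.671, 0.458 and 0.888 after. Over all genes edgeR called 0.0171% in this comparison, which is 3 genes, and DESeq2 called 47 genes. The 95% interval of the difference, mutant minus wild-type, was -0.62 to 0.13 for EIF6, -0.49 to 0.04 for EFTUD1 and -0.43 to 0.21 for SBDS, so these data do not show that the lines respond alike.

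By replicate number, which the labels do not tie to a shared culture, the changes of EFTUD1 were -0.90 and -0.97 in wild-type and -1.06 and -1.26 in mutant cells. Those of EIF6 were -1.14 and -1.13 in wild-type and -1.58 and -1.19 in mutant cells, and those of SBDS were -0.10 and 0.08, and -0.04 and -0.20. The difference between the lines depended on single libraries and sgRNAs. For EIF6 it was -0.14 without mutant day 0 replicate 1 and -0.15 without mutant day 9 replicate 1. Without replicate 2 of the same groups it was -0.34 and -0.35, and without sgRNA 4 and sgRNA 5 it was -0.44 and -0.42. For EFTUD1 it was -0.15 without mutant day 9 replicate 2 and -0.29 without mutant day 9 replicate 1. Without sgRNA 3 it was -0.09 and without sgRNA 4 it was -0.36, and none of the differences without an sgRNA passed by edgeR. For EIF6 the direction rested on sgRNA 2, without which the difference was 0.12 (edgeR, adjusted p = 0.984). The EIF6 difference was largest in size, at -0.50, when the log2 CPM of sgRNAs was averaged (limma, adjusted p = 0.896). That of EFTUD1 was then -0.26 (limma, adjusted p = 0.896). The average gives the rare EIF6 sgRNA 1, with a difference of -2.66, the same weight as the others. Of the 5 sgRNAs of EIF6, 2 had a difference below 0 and 3 above it (median 0.01). For EFTUD1 these counts were 4 and 1 (median -0.16).

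Among single sgRNAs, 0 of 15 passed in the difference, as did 0% of all 104881 sgRNAs (edgeR, adjusted p under 0.05). DESeq2 called 140 of all sgRNAs and none of the 15. At an unadjusted p under 0.05 edgeR gave 5362 of all sgRNAs and 2 of the 15. These were EIF6 sgRNA 2, with a difference of -1.15 (SE 0.40), and EFTUD1 sgRNA 3, with -0.86 (SE 0.30). The largest difference in size was that of the rare EIF6 sgRNA 1, at -2.66 (edgeR, adjusted p = 0.964). EIF6 sgRNA 3, the most depleted one in wild-type cells, differed by 0.02 (SE 0.53).

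Genes for ribosomal proteins around the eIF6 site, and for the stalk that recruits GTPases, were among those lost. Of 7 such genes, 5 fell in wild-type and 4 in mutant cells, beside 9.28% and 9.07% of all genes called lower. Their median log2 change was -0.61 and -0.57, beside 0.01 over all genes in both lines. RPL24 (eL24), next to the eIF6 site, had -2.70 (SE 0.37) in wild-type and -3.16 (SE 0.37) in mutant cells. RPL23 (uL14), the main contact of eIF6, had -2.08 (SE 0.37) and -2.88 (SE 0.39), and RPL3 (uL3) had -1.06 (SE 0.14) and -1.18 (SE 0.14), and these 3 genes passed in both lines. The stalk base protein RPL12 (uL11) fell by 0.55 (SE 0.14) in wild-type cells and stood at -0.28 (SE 0.13) in mutant cells. Among the stalk proteins, RPLP1 fell by 0.61 (SE 0.17) in wild-type cells. In mutant cells it stood at -0.48 (SE 0.17; edgeR, adjusted p = 0.0815). RPLP2 stood at -0.39 (SE 0.14; edgeR, adjusted p = 0.0742) in wild-type cells and fell by 0.57 (SE 0.14) in mutant cells. RPLP0, the stalk's anchor, stood at -0.15 (SE 0.14) and 0.00 (SE 0.14). RPLP1 and RPLP0 were named after their values were seen, to complete the stalk. None of the 7 passed in the difference by edgeR, where 0.0171% of all genes were called. Their unadjusted p ranged from 0.135 to 0.593 (edgeR).

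Of 13 other factors of cytoplasmic 60S maturation, 5 fell in wild-type and 9 in mutant cells (median -0.25 and -0.66). Over all genes 9.28% and 9.07% were called lower. CINP, a subunit of the ATPase complex that works on early cytoplasmic 60S particles, had -1.18 (SE 0.10) and -1.31 (SE 0.10), a difference of -0.12 (SE 0.14). SPATA5L1, an ATPase of the same complex, had -0.80 (SE 0.13) and -0.71 (SE 0.13). Its other listed subunits, named after their values were seen, did not pass in either line, with SPATA5 at -0.10 and -0.07 and C1orf109 at -0.05 and 0.11. DUSP12, a phosphatase that binds late 60S particles, had -0.48 (SE 0.09) and -0.50 (SE 0.09), and PA2G4, a protein of the exit tunnel, had -0.38 (SE 0.10) and -0.39 (SE 0.10). SPATA5L1, DUSP12 and PA2G4 passed in both lines. LSG1, the GTPase that releases the export adaptor NMD3, had -0.52 (SE 0.15) and -1.56 (SE 0.15) and, like CINP, passed in both lines. NMD3 stood at -0.26 (SE 0.13) in wild-type cells and fell by 1.13 (SE 0.13) in mutant cells. In the difference, ZNF622, a zinc finger protein of 60S maturation, and RPL10, the gene of uL16 itself, passed, at -0.97 (SE 0.15; edgeR, adjusted p = 0.00312) and -1.17 (SE 0.22; adjusted p = 0.027), while LSG1, at -1.04 (SE 0.21), and NMD3, at -0.87 (SE 0.19), did not (adjusted p = 0.0565 and 0.0963). Without wild-type day 0 replicate 1 neither ZNF622 nor RPL10 passed, and 6 of the 20 genes of both lists passed in wild-type cells in place of 10. The difference called 1 of the 20 without wild-type day 0 replicate 2, wild-type day 9 replicate 2 or either mutant day 0 library, and 4 without wild-type day 9 replicate 1. With summed counts EFTUD1 and EIF6, at -0.23 and -0.24, had differences nearer to 0 than ZNF622, RPL10, LSG1 and NMD3. The differences of these genes were not tested against each other.

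**Figure D3:**
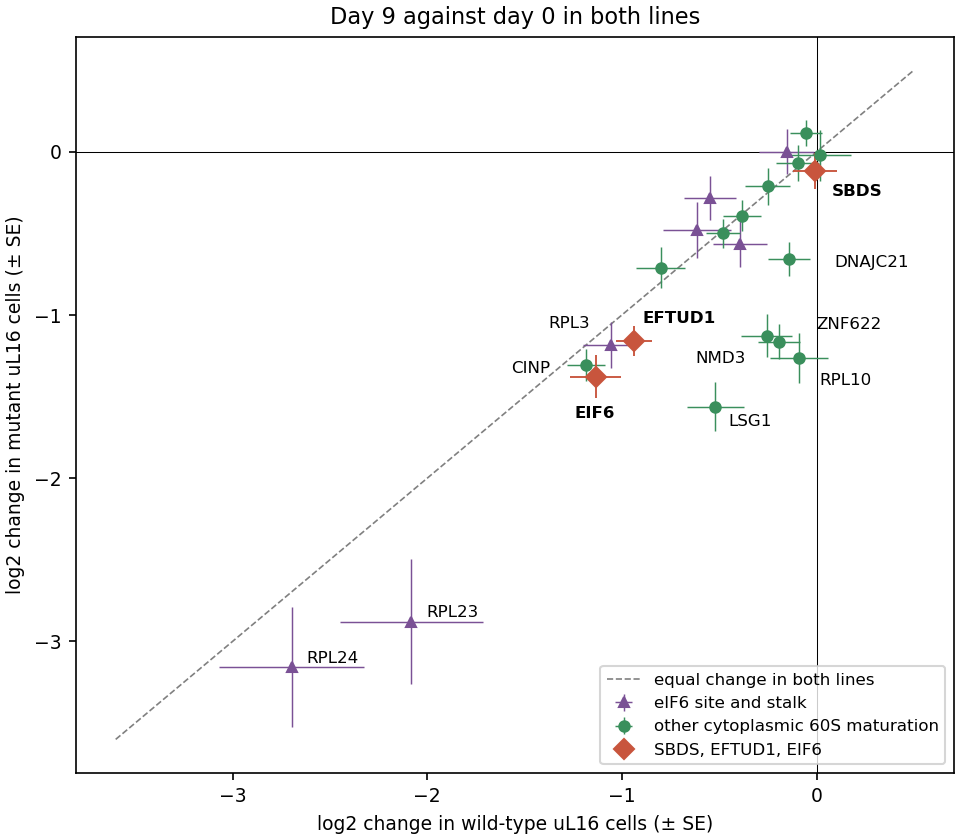
Log2 change from day 0 to day 9 in wild-type cells (x axis) against mutant cells (y axis), each ± SE, for the 3 genes (diamonds), the eIF6 site and stalk (triangles) and other factors of cytoplasmic 60S maturation (circles), with a dashed line of equal change. EIF6 (-1.13, -1.38) and EFTUD1 (-0.94, -1.16) lie close to the line and SBDS (-0.01, -0.12) near the origin, while LSG1, NMD3, ZNF622 and RPL10 lie below the line.

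Genes linked to Shwachman-Diamond syndrome or its relatives formed a list of 4, with SBDS and EFTUD1 themselves included. EFTUD1 fell in both lines, as given above. DNAJC21, a J-domain co-chaperone of 60S maturation, fell by 0.66 (SE 0.11) in mutant cells and stood at -0.14 (SE 0.11) in wild-type cells. SBDS and SRP54, the GTPase subunit of the signal recognition particle, passed in neither line, with SRP54 at -0.08 (SE 0.12) and -0.06 (SE 0.12). The difference of DNAJC21 was -0.51 (SE 0.15; edgeR, adjusted p = 0.669).

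The genes whose values over the 8 libraries came closest to each of the 3 were found by the Euclidean distance of log2 CPM, taken from the day 0 mean of the same line. For EFTUD1 they were SHOC2 (distance 0.121), a scaffold of RAS signalling, MED28 (0.146), a Mediator subunit, and TREX2 (0.184), an exonuclease. For EIF6 they were MRPS24 (0.179), a mitochondrial ribosomal protein, VPS54 (0.243), a subunit of a Golgi tethering complex, and NDC80 (0.248), a kinetochore protein. For SBDS they were TMEM121 (0.0958), AKAP9 (0.107) and ACAA1 (0.113), and 10594 genes lay within 0.5 of it, against 157 for EFTUD1 and 87 for EIF6. EFTUD1 and EIF6 lay 0.519 apart, and SBDS lay 1.98 from EFTUD1 and 2.42 from EIF6.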

How the data were processed

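The authors deposited raw counts of reads per sgRNA, 1 column per library, with no normalization. Per the file headers, trimmed reads were counted in forward orientation against the human CRISPRi library. No header or label names the program used. Positions in sgRNA names lie far from the GRCh38 gene starts, so only distances between them are printed. sgRNAs with a mean count of at least 20 (104881) were kept. P1 and P1P2 sgRNAs were summed per gene with at least 3 of them, giving 87897 sgRNAs and 17547 genes, and 1358 genes with other promoter names were left out. R 4.3.3 with edgeR 4.0.16 (TMM, quasi-likelihood, 1 mean per group over all 8 libraries) tested summed counts and single sgRNAs. edgeR estimated the spread of each gene or sgRNA partly from the others. The tests and intervals of the 3 genes therefore rest on 33.3 degrees of freedom, where their own libraries leave 4. Each SE printed is the size of the edgeR log2 change divided by the square root of the F statistic of its test. The 95% intervals of gene changes are symmetric and built from it. At counts as low as those of EIF6 sgRNA 1 this SE is only approximate. DESeq2 1.42.0 and limma 3.58.1 (prior count 2) served as alternatives. The gene and sgRNA tests were run on simulated counts with the same fixed spread for genes and sgRNAs and changes placed in mutant day 9 only. This checked the code and does not show how the tests behave with the noise of these libraries. Named genes were the 3 genes, neighbours within 1000 bases, the 3 nearest genes by distance and genes from fixed lists of related genes. From each list up to 4 genes with the smallest p in a contrast were named. RPLP1, RPLP0, SPATA5 and C1orf109 were added after their values were seen. The genes and lists were chosen with earlier results of these data known.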

Additional observations from a re-analysis of the deposited data

How the results depend on the processing

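EFTUD1 and EIF6 stayed lower and past the threshold in both lines under each of the 24 alternatives run, with changes from -1.20 to -0.85 (EFTUD1) and -1.65 to -0.87 (EIF6) in wild-type and from -1.40 to -0.95 and -2.15 to -0.88 in mutant cells (highest adjusted p = 0.00028). The difference between lines passed under none of 23 for any of the 3 genes (adjusted p from 0.458 to 1.00). SBDS passed under no alternative, and its sign was not stable. With 1 library left out, its change ran from -0.0772 to 0.0583 in wild-type and from -0.261 to 0.0241 in mutant cells, and its difference from -0.253 to 0.0318. Without the most abundant sgRNA of each gene, SBDS had 0.0127 in mutant cells and a difference of 0.0452, and EIF6 a difference of 0.124. In alternatives chosen after seeing the data, SBDS had 0.0430 in wild-type cells without its sgRNA 1 and 0.0146 without sgRNA 5, and without sgRNA 2 the difference was 0.0451 for SBDS and 0.125 for EIF6. The 15 sgRNAs gave 5 to 6 calls in wild-type, 5 to 7 in mutant cells and 0 in the difference.

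Over all genes, DESeq2 called 2713 in wild-type cells (1802 with edgeR) and 47 in the difference (3 with edgeR). The difference had 5 calls with the replicate block, 1 with all promoters pooled, and 1 to 21 with 1 library left out. Of the 20 related 60S genes, the difference called 2 in the main test, 4 with DESeq2, and 1 with limma on mean log2 CPM, without the most abundant sgRNA or with all promoters pooled. With 1 library left out it called 0 to 4, and 6 to 11 were called in wild-type cells. The replicate block gave EIF6 -1.13 and EFTUD1 -0.94 in wild-type cells and changed no call of the 3 genes. Libraries of the same number did not deviate together (correlations from -0.0081 to 0.0442 over genes), so the numbers were not taken as pairs. Depth limits the rare EIF6 sgRNA 1, and 2 libraries per group limit every comparison.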

Other observations

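Relatives of EFTUD1 and partners of eIF6 were measured as well. Of 3 GTPases related to EFTUD1, 2 fell in wild-type and 3 in mutant cells, beside 9.28% and 9.07% of all genes called lower. The mitochondrial elongation factor GFM1 had -0.45 (SE 0.10) and -0.63 (SE 0.10), and EFTUD2, a GTPase of the spliceosome, had -0.79 (SE 0.23) and -0.84 (SE 0.23). EEF2, the elongation factor most like EFTUD1, stood at -0.32 (SE 0.13; edgeR, adjusted p = 0.14) in wild-type cells and fell by 0.42 (SE 0.13; adjusted p = 0.0298) in mutant cells. None of the 3 passed in the difference (edgeR, unadjusted p from 0.206 to 0.876), where 0.0171% of all genes were called.

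GNB2L1, which encodes the small-subunit protein RACK1, a reported partner of eIF6, had -1.24 (SE 0.13) in wild-type and -0.71 (SE 0.13) in mutant cells, both past the threshold. Its difference of 0.53 (SE 0.18), opposite in sign to those of EIF6 and EFTUD1, did not pass (edgeR, adjusted p = 0.865). ITGB4, the integrin subunit through which eIF6 was also described, stood at -0.07 (SE 0.11) and 0.10 (SE 0.11).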
